A study of Mus musculus with 12 samples.

Results

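The voltage-gated sodium and calcium channel genes were taken as every protein-coding gene in the count files whose GENCODE mouse name is Scn with a number and a or b, or begins with Cacna, Cacnb or Cacng. They numbered 40 of 55416 genes (21627 of them protein-coding), with 14 sodium channel genes and 26 calcium channel genes, and the rule uses gene names alone. Their levels were read in bulk RNA-seq libraries of hair cells from the mouse organ of Corti at postnatal day 0 (P0), 6 made from sorted inner hair cell (IHC) pools and 6 from sorted outer hair cell (OHC) pools. All animals were labelled wild type, and the cross carried 3 knock-in alleles used for sorting, an Atoh1-GFP allele that marks hair cells, an Insm1 allele that expresses GFP and Cre, and a R26 TdTomato reporter that Cre switches on. IHCs were sorted by GFP alone and OHCs by GFP with TdTomato, so the gate rests on Insm1, a gene that nascent OHCs express and IHCs lack. The number of animals in each RNA pool was not given in the sources used here. The adjusted p-values weigh the difference between cell types against the spread between these pools.

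Voltage-gated sodium channels carry the fast inward current of an action potential, and voltage-gated calcium channels turn a change of membrane voltage into calcium entry. In both, 1 large α subunit forms the pore, while smaller subunits change its gating and its number at the surface, namely the Scnb β subunits for sodium channels and the Cacnb β and Cacna2d α2δ subunits for calcium channels. IHCs release glutamate onto the auditory nerve when L-type calcium channels open at their ribbon synapses, and before the onset of hearing they fire calcium action potentials to which sodium current contributes.

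The pools were first described by their markers. These lists were chosen with earlier results of these data known, so they are no independent check. The IHC genes Fgf8, Slc17a8, Tbx2 and Otof were all higher in IHCs, with a summed level of 1834 to 4284 CPM (read counts scaled to a common, TMM-normalised library size) in IHC libraries and 360 to 687 CPM in OHC libraries. Most of both sums was Otof, at 1417 to 3699 CPM in IHC libraries and 354 to 664 CPM in OHC libraries. Of the OHC genes Insm1, Neurod6, Bcl11b and Ikzf2, 3 were higher in OHCs, Ikzf2 being the one not called. The sums were 2.16 to 23.5 CPM in IHCs and 105 to 188 CPM in OHCs. Insm1 is also the gene on which the sort gate rests, so its difference was set by the sort. The IHC libraries held 31490204 to 44017309 counts on genes, with 21.5% to 56.9% of them on ribosomal RNA, and the OHC libraries 29564827 to 39121988, with 23.4% to 36.4%. IHC replicate 1 stood apart, with the highest ribosomal share and the lowest normalisation factor (0.486), and it is named below beside several results that it moved.

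Of the 40 channel genes, 21 passed edgeR's filter on low counts and 19 did not. At an adjusted p-value below 0.05 in edgeR's quasi-likelihood test over all 13269 genes tested, 3 channel genes (14.3% of those tested) differed between the cell types, beside 6.26% of all genes. Cacna2d2 and Cacng7 were IHC-enriched, where the background in that direction was 3.81%, and Cacng2 was OHC-enriched, where it was 2.44%. All 3 belong to the auxiliary or auxiliary-like calcium channel families, and none of the 4 tested pore genes in either channel class passed. A share from 3 calls is given as a description only. With edgeR's exact test 3 were IHC-enriched and 1 OHC-enriched, where the backgrounds were 5.66% and 3.91% (9.57% in all), and with DESeq2 6 and 2, where they were 7.92% and 9.4%. Cacna2d2, Cacng2 and Cacnb2 had no overlap between the 6 libraries of each type, as had 4.6% of all genes tested. The median log2 fold change of OHCs against IHCs was -0.10 over the tested channel genes and -0.04 over all genes tested, negative values meaning a higher level in IHCs.

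**Figure D1:**
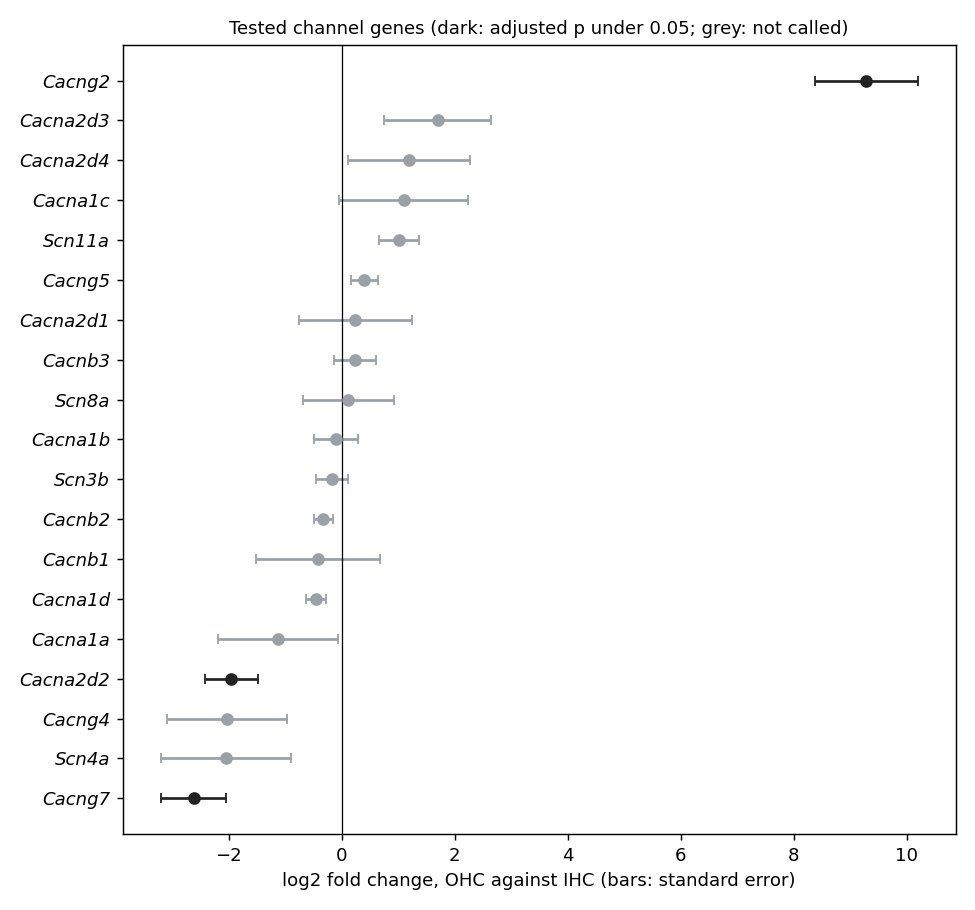
Log2 fold change of OHCs against IHCs (horizontal axis) for 19 of the 21 tested channel genes, with the standard error as bars. Dark points mark the 3 genes past the threshold, Cacng2 at 9.29 on the right and Cacna2d2 at -1.95 and Cacng7 at -2.62 on the left.

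The sequence before the start of each gene was read beside these levels. The 250 bases upstream of the annotated start of each protein-coding gene (canonical transcript, GENCODE vM39 on GRCm39) were searched on both strands for CAGCTG, an E-box of the kind bound by bHLH factors such as Atoh1, and GGTGTGA, the core letters of a T-box site, Tbx2 being a T-box factor of IHCs. CAGCTG was found upstream of 8 of the 40 channel genes and of 11.9% of all 21627 protein-coding genes, and GGTGTGA upstream of 3 of 40 and of 3.24% of all. Among the 3 called genes, Cacng2 held the E-box, Cacna2d2 the T-box letters and Cacng7 neither. The 30 bases around the match are given for these 2 called genes and for the leading pore genes, in the gene's own direction with the motif in capitals.

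Cacng2 (chr15:78004577-78004606, minus strand, match 148 bases from the start): ttccaggagaagCAGCTGattgaagttttg
Cacna2d2 (chr9:107276595-107276624, plus strand, match 199 bases from the start): cttcttctgtgGGTGTGAcaggactgccat
Cacna1d (chr14:30075609-30075638, minus strand, match 180 bases from the start): gccgcaggcgggCAGCTGgggcgcggcgcg
Scn11a (chr9:119654564-119654593, minus strand, match 54 bases from the start): cacccagcttccCAGCTGcccctcccagag

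A match is a run of letters and was not tested as a binding site.

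Cacna1d, which encodes the L-type pore subunit that carries most of the calcium current of IHCs, was the leading pore gene in both cell types. It lies on chromosome 14 from 29761896 to 30213412 (GRCm39, minus strand). Its level was 307 to 425 CPM in IHC libraries (median 377) and 240 to 327 CPM in OHC libraries (median 262). The groups overlapped by a single IHC library, so 5 of 6 IHC libraries lay above every OHC library. The means were 368 ± 42.0 and 269 ± 30.9 CPM (SD, n = 6 each), a log2 fold change of -0.46 ± 0.17 (SE) that did not pass edgeR's quasi-likelihood test after adjustment (adjusted p = 0.121). DESeq2, which called 17.3% of the 16911 genes it tested, called it at an adjusted p of 0.00705. Antisense Chdh shares 9.72% of the exonic bases of Cacna1d and had at most 712 counts in a library, against up to 16234 for Cacna1d, and whether strand was used in counting is not given in the sources used here.

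Levels of different genes were compared as RPKM, the CPM divided by the length of the gene's exons in kilobases. Cacna1d made up 84.8% ± 4.31 of the summed RPKM of the 10 pore genes in IHCs and 82.4% ± 7.29 in OHCs. Cacna1b, the pore of the N-type channel of nerve terminals, came second with 12.8% ± 3.31 and 15.8% ± 7.04. Its level was 36.5 ± 9.13 CPM in IHCs and 34.0 ± 16.1 CPM in OHCs (log2 fold change -0.10 ± 0.38, edgeR adjusted p = 0.910), a difference smaller than the spread between libraries. The summed RPKM of the pore genes was 24.9 to 33.1 in IHC libraries and 19.4 to 23.9 in OHC libraries, which do not overlap.

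The remaining pore genes were lower. Cacna1a, the P/Q-type pore, averaged 3.01 ± 2.85 CPM in IHCs against 1.37 ± 2.46 CPM in OHCs. Cacna1c, the L-type pore of heart and smooth muscle, averaged 0.939 ± 1.31 against 2.004 ± 1.67 CPM. Neither passed (edgeR adjusted p = 0.577 and 0.618). The other 6 did not pass the filter, with a highest count in any library of 199 for Cacna1e (R-type), 77 for Cacna1f (the L-type pore of photoreceptors), 67 for Cacna1g, 253 for Cacna1h and 5 for Cacna1i (the T-type pores), and 335 for Cacna1s (the L-type pore of skeletal muscle).

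Among these untested genes, Cacna1g and Cacna1s had unequal counts in the cell types. Cacna1g had 0 to 2 counts in IHC libraries and 6 to 67 counts in OHC libraries, so the groups did not overlap. OHC replicate 1 held the 67 counts, and the other OHC libraries had 6 to 11. Over the genes tested, 2.22% had every OHC library above every IHC library, but that share leaves out genes as low as Cacna1g. Without a filter its log2 fold change was 3.26 (edgeR adjusted p = 0.203), and DESeq2 gave 3.45 (adjusted p = 0.0132). Cacna1s had 0 to 335 counts in IHC libraries and 0 to 3 in OHC libraries, with a log2 fold change of -5.30 without a filter (edgeR adjusted p = 0.0596) and of -5.38 in DESeq2 (adjusted p = 8.85e-04). IHC replicate 3 held the 335 counts, IHC replicate 2 had 72, IHC replicate 4 had 13 and the other IHC libraries 0 to 5. By CPM, 4 of 6 IHC libraries lay above every OHC library. The skeletal muscle markers summed to 0.419 to 6.73 CPM in IHC libraries (0.419 CPM in IHC replicate 3) and 0.434 to 4.33 CPM in OHC libraries. Of these 8 markers only 1 passed the filter. The part of muscle cells in the Cacna1s counts was not tested.

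The α2δ subunits are extracellular, membrane-anchored proteins that bring the channel to the surface. Cacna2d2 was the leading member in both cell types and was IHC-enriched. It lies on chromosome 9 from 107276811 to 107406543 (plus strand). Its level was 52.2 to 162 CPM in IHC libraries (median 112) and 2.67 to 46.5 CPM in OHC libraries (median 24.9). All 6 IHC libraries lay above all 6 OHC libraries, as 2.37% of the genes tested did in that direction. The means were 106 ± 49.0 and 27.4 ± 15.7 CPM, 3.87-fold higher in IHCs (log2 fold change -1.95 ± 0.47, edgeR adjusted p = 0.0161).

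This call held in every alternative run, with a log2 fold change between -2.18 and -1.72 and an adjusted p of 0.00174 to 0.0412. OHC replicate 5 held the lowest level, and without it the log2 fold change was -1.72. Bulk pools cannot tell fewer expressing cells from less RNA per cell. Of the markers of spiral ganglion neurons, 4 of the 6 tested genes were also IHC-enriched (Nefl, Nefm, Ntrk3 and Snap25), and the list of 12 summed to 1307 to 2033 CPM in IHCs and 481 to 897 CPM in OHCs. Prph, Th, Tubb3, Thy1 and Neurod1, of the same list, each averaged at most 0.858 CPM in either cell type, and the part of such cells in the result was not tested. Of the 8 supporting cell markers, 7 were tested, and Sox2 and Gjb2 were IHC-enriched. Sox9, Hey2 and Gjb6 averaged higher in IHCs without a call. Fgfr3 (16.8 ± 27.9 CPM in IHCs and 73.1 ± 3.47 CPM in OHCs, edgeR adjusted p = 0.0722) and Hes1 averaged higher in OHCs, also without a call. S100a6, untested, averaged 0.0204 and 1.48 CPM. The list summed to 259 to 660 CPM in IHCs and 131 to 242 CPM in OHCs, with Gjb2 averaging 216 and 30.3 CPM. The part of such cells was not tested either.

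The other 3 α2δ genes were low. Cacna2d1, the subunit of muscle and the binding site of gabapentinoids, averaged 2.78 ± 3.29 CPM in IHCs and 3.28 ± 2.29 CPM in OHCs (edgeR adjusted p = 0.917). Cacna2d3 averaged 1.86 ± 1.51 and 6.05 ± 3.70 CPM (log2 fold change 1.70 ± 0.94, edgeR adjusted p = 0.307), with 4 of 6 OHC libraries above every IHC library. Cacna2d4, known for its place in photoreceptor channels, averaged 2.50 ± 3.56 and 5.73 ± 5.16 CPM (edgeR adjusted p = 0.558).

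Because the other members were low, Cacna2d2 made up 91.3% to 99.8% of the α2δ RPKM in IHC libraries (mean 95.2%). In OHC libraries the share was 16.4% to 85.3% (mean 66.8%), all below the IHC range. OHC replicate 5 had the 16.4%, and there Cacna2d4 made up 68.8%. The summed α2δ RPKM was 13.9 ± 6.22 in IHCs and 4.79 ± 2.18 in OHCs.

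Cacnb2, the cytoplasmic β subunit of the hair cell L-type channel, lies on chromosome 2 from 14607899 to 14994127 (plus strand). Its level was 262.5 to 319 CPM in IHC libraries (median 285) and 195 to 262.3 CPM in OHC libraries (median 234). The groups touched but did not overlap. The means were 288 ± 22.4 and 230 ± 29.9 CPM, a 1.25-fold difference (log2 fold change -0.33 ± 0.17) that did not pass edgeR's test (adjusted p = 0.273) and passed in DESeq2 (adjusted p = 0.0420). Of its exonic bases, 2.63% and 1.63% are shared with the antisense genes Gm10848 and Gm13269, which had at most 281 and 1291 counts in a library, against up to 12209 for Cacnb2.

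Cacnb3, a β subunit of neurons, was second in its family, with 60.7 ± 34.3 CPM in IHCs and 71.2 ± 37.9 CPM in OHCs (edgeR adjusted p = 0.763). It made up 34.8% ± 9.37 of the β subunit RPKM in IHCs and 43.9% ± 13.8 in OHCs, beside 62.7% ± 13.5 and 53.2% ± 11.4 for Cacnb2. By these exon-union lengths Cacnb3 was the higher of the pair in 4 of the 12 libraries, and by the length of the longest transcript in 0. Cacnb1, the β subunit of skeletal muscle, averaged 6.34 ± 12.7 CPM in IHCs, where IHC replicate 1 alone stood at 32.2 CPM, and 4.72 ± 4.16 CPM in OHCs (edgeR adjusted p = 0.860). Cacnb4, another neuronal β subunit, had at most 10 counts in any library and was not tested.

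**Figure D2:**
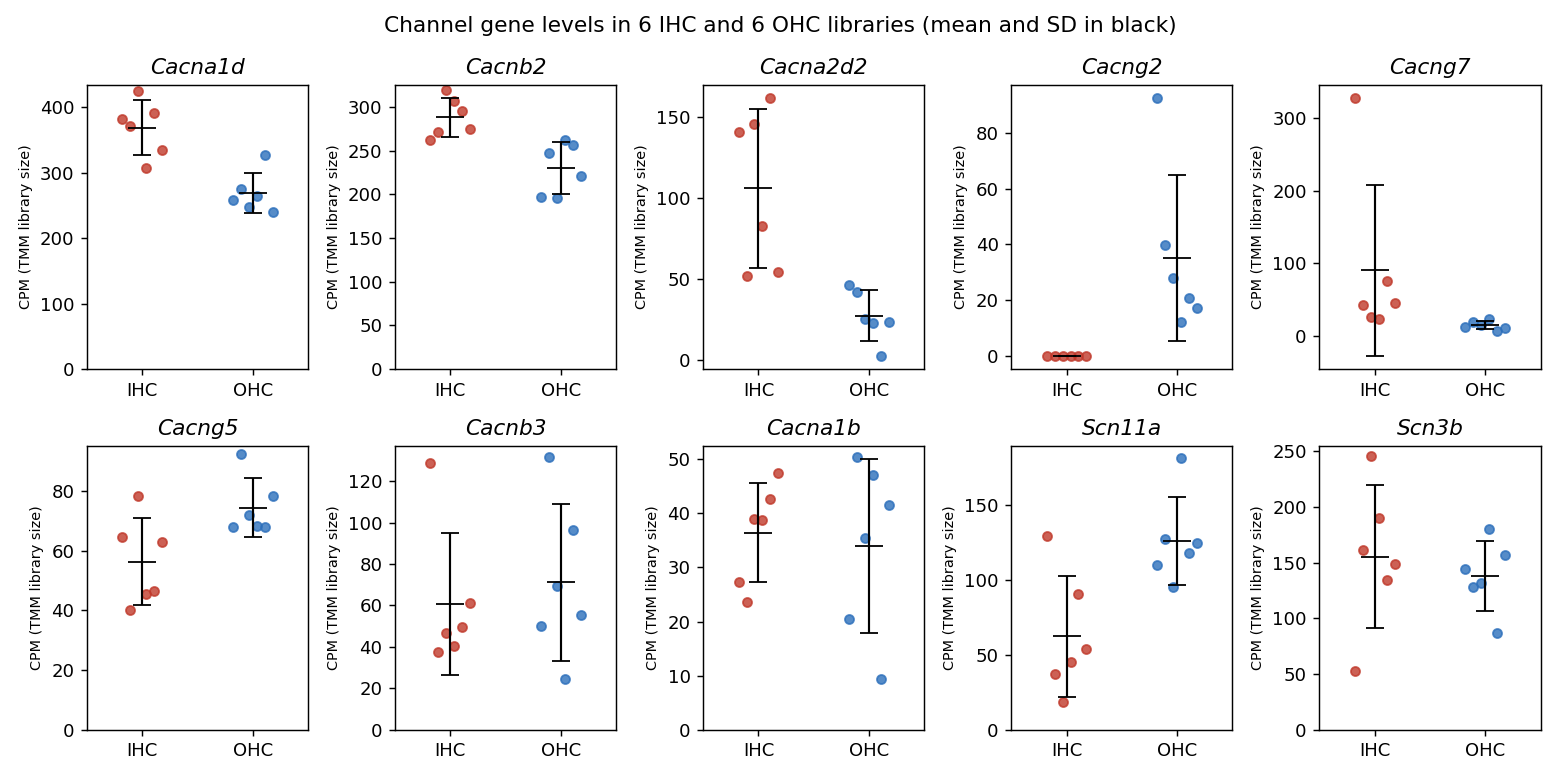
CPM on the TMM-normalised library size (vertical axes, linear, each panel on its own scale) of 10 channel genes in the 6 IHC libraries (red) and the 6 OHC libraries (blue), with the mean and SD in black. Cacna2d2, Cacnb2 and Cacng2 separate the groups completely, and Cacng7 has 1 IHC library at 328 CPM.

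The Cacng genes encode membrane proteins that include calcium channel γ subunits of muscle and the TARPs, proteins that escort AMPA-type glutamate receptors to the synapse and alter their gating. In this family both directions were called. Cacng2 encodes stargazin, a TARP, and lies on chromosome 15 from 77875948 to 78004441 (minus strand). It had 0 to 4 counts in each IHC library, and 418 to 4291 counts in each OHC library. Its level was 12.2 to 92.5 CPM in OHC libraries (median 24.4) and at most 0.131 CPM in IHC libraries. The groups are far apart, with every OHC library above every IHC library, as 2.22% of the genes tested were.

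The fitted log2 fold change of Cacng2 was 9.29 ± 0.91 (edgeR adjusted p = 2.65e-06), a value that depends on how 10 counts over all IHC libraries are weighed. As a ratio of the summed counts, 8409 in OHCs against 10 in IHCs, each divided by the summed library size, it was 766.9 (95% exact Poisson interval 416.8 to 1600). That interval takes each count as independent, which amplified copies are not, and leaves out the spread between libraries. OHC replicate 1 had the 92.5 CPM, and without it the fitted value was 8.68. Antisense A730060N03Rik shares 9.37% of its exonic bases and had at most 106 counts in a library. Of the endothelial markers, 4 of the 6 tested (Cldn5, Pecam1, Cdh5 and Kdr) were also OHC-enriched, with a list sum of 0.392 to 12.99 CPM in IHCs and 11.4 to 176 CPM in OHCs. The part of such cells in the Cacng2 result was not tested.

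Cacng7, also a TARP, went the other way. It lies on chromosome 7 from 3380237 to 3416738 (plus strand). Its level was 23.5 to 328 CPM in IHC libraries (median 43.8) and 6.74 to 23.6 CPM in OHC libraries (median 13.7). The groups met at the edge, with 5 of 6 IHC libraries above every OHC library. The means were 90.0 ± 118 and 14.6 ± 5.94 CPM (log2 fold change -2.62 ± 0.57, edgeR adjusted p = 0.00840). IHC replicate 1 had the 328 CPM, the other IHC libraries reaching at most 75.3 CPM. Without that library the log2 fold change was -1.55 (edgeR adjusted p = 0.0269), 2.94-fold in place of 6.16-fold, and the gene was called in every alternative run. The called markers given beside Cacna2d2 (Nefl, Nefm, Ntrk3, Snap25, Sox2 and Gjb2) moved in the same direction as Cacng7. Others of those lists, among them Thy1 and Fgfr3, averaged higher in OHCs. The part of neurons and supporting cells in this result was not tested.

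Cacng5, a further TARP, was present in both cell types at 40.0 to 78.5 CPM in IHC libraries (median 54.8) and 67.8 to 92.6 CPM in OHC libraries (median 70.1). The ranges overlap, and the means of 56.3 ± 14.7 and 74.5 ± 9.74 CPM did not pass the test (log2 fold change 0.40 ± 0.25, edgeR adjusted p = 0.361). Cacng4, another TARP, averaged 6.54 ± 7.20 CPM in IHCs and 1.59 ± 1.31 CPM in OHCs (log2 fold change -2.04 ± 1.06, edgeR adjusted p = 0.271). The TARPs Cacng3 and Cacng8 had at most 1 and 6 counts in any library. The γ subunit of the skeletal muscle calcium channel, Cacng1, and its relative Cacng6 had 0 counts in all 12 libraries, which allows up to 3 counts per library, or 0.0645 to 0.196 CPM.

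By RPKM, the leading member of the γ family on average was Cacng7 in IHCs (48.8% ± 20.5) and Cacng5 in OHCs (63.9% ± 10.3). IHC replicate 1, where Cacng7 made up 84.6%, weighs on the IHC mean. By the median of the 6 IHC libraries Cacng5 stood at 48.2% and Cacng7 at 45.9%, and with the longest transcript as the length at 45.4% and 49.3%, so the order of the pair in IHCs depends on the average and the length used. Cacng2 made up 0.031% ± 0.033 in IHCs and 20.8% ± 13.3 in OHCs. These shares describe the libraries, and no test was made of them.

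**Figure D3:**
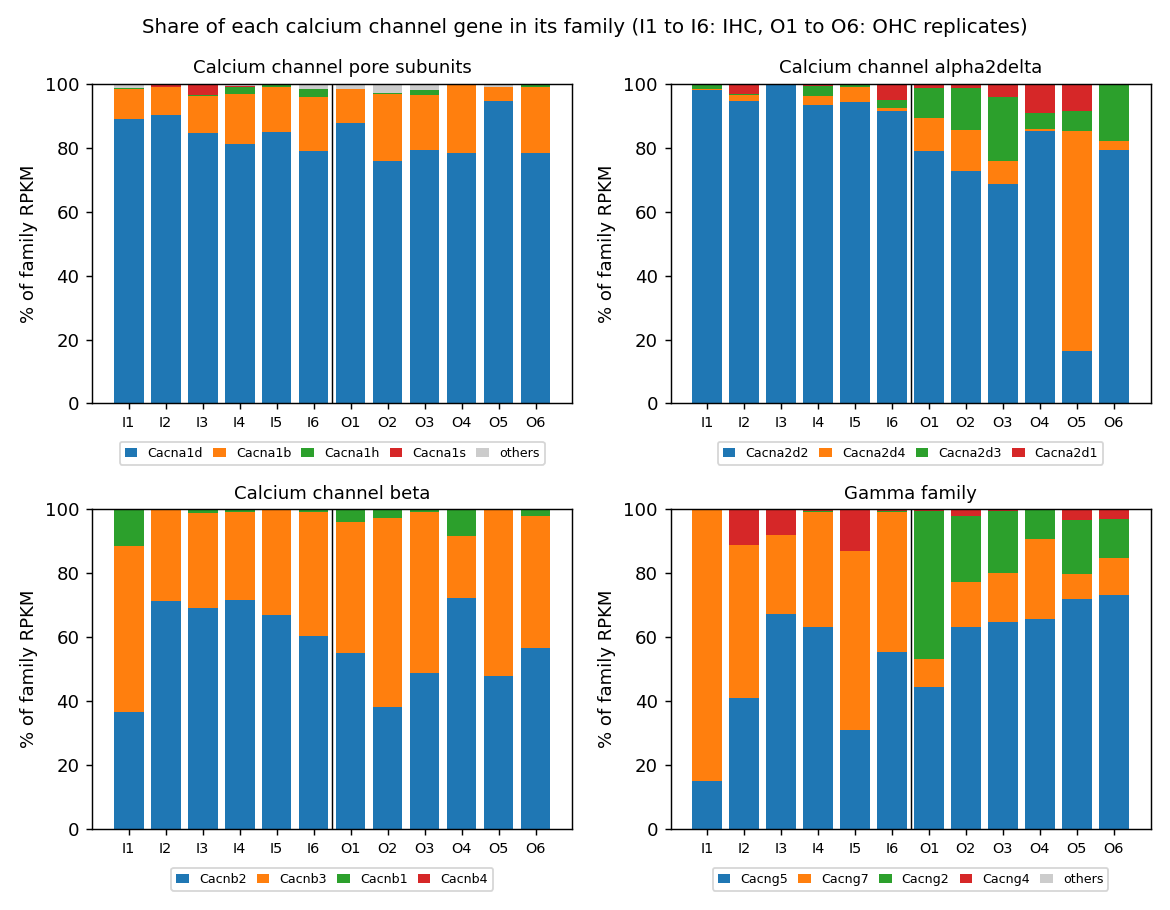
Share of each calcium channel gene in the summed RPKM of its family (vertical axes, percent) in each of the 6 IHC libraries (I1 to I6) and 6 OHC libraries (O1 to O6). Cacna1d holds most of the pore family and, in IHCs, Cacna2d2 most of the α2δ family, whereas the γ family mixes Cacng5 and Cacng7 in IHCs and adds Cacng2 in OHCs.

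None of the 6 tested sodium channel genes passed the threshold by edgeR's quasi-likelihood test, while 2 had an unadjusted p below 0.05, as had 21.8% of all genes tested, and DESeq2 called 1 of the 14. Scn11a, the pore of a persistent, tetrodotoxin-resistant current best known from pain-sensing neurons, was the leading pore gene in both cell types. It lies on chromosome 9 from 119582825 to 119654522 (minus strand). Its level was 18.7 to 129 CPM in IHC libraries (median 49.6) and 94.95 to 181.5 CPM in OHC libraries (median 121). IHC replicate 1 had the 129 CPM, inside the OHC range, and the other IHC libraries lay below every OHC library.

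The means of Scn11a were 62.4 ± 40.5 and 126 ± 29.5 CPM, a log2 fold change of 1.02 ± 0.35 that did not pass (edgeR adjusted p = 0.0946). Without IHC replicate 1 it was 1.35 and passed (edgeR adjusted p = 0.0132), as it did in limma voom with library quality weights (1.39, adjusted p = 0.00359). Over all alternatives the adjusted p ran from 0.00359 to 0.209. Scn11a made up 77.0% ± 15.6 of the sodium pore RPKM in IHCs (46.8% to 91.4%) and 95.2% ± 2.29 in OHCs (92.8% to 99.0%). The OHC shares all lay above the IHC shares.

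Scn4a, the pore of skeletal muscle, averaged 9.98 ± 11.9 CPM in IHCs and 2.41 ± 4.46 CPM in OHCs (log2 fold change -2.05 ± 1.16, edgeR adjusted p = 0.316). IHC replicate 1 held its highest level, 31.3 CPM. Scn8a, the main pore of the axon initial segment and nodes of Ranvier, averaged 6.10 ± 4.30 and 6.63 ± 6.31 CPM, with no detectable difference (log2 fold change 0.12 ± 0.80, edgeR adjusted p = 0.950). The neuronal pores Scn1a, Scn2a, Scn3a, Scn9a and Scn10a and the sodium-sensing channel relative Scn7a were not tested. Their highest counts in any library were 3, 36, 117, 1, 314 and 1.

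The Scnb β subunits are single-pass membrane proteins with an immunoglobulin-like domain. Scn3b, on chromosome 9 from 40179378 to 40203052 (plus strand), was the leading member in both cell types. Its level was 52.5 to 245 CPM in IHC libraries (median 155) and 86.4 to 180 CPM in OHC libraries (median 138). The 52.5 CPM came from IHC replicate 1. The OHC range lay inside the IHC range, and the means of 155 ± 63.9 and 138 ± 31.4 CPM did not differ beyond the spread between libraries (log2 fold change -0.17 ± 0.28, edgeR adjusted p = 0.766).

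Scn2b and Scn4b, which link to the pore by a disulphide bond, had at most 89 and 23 counts in any library.

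Several of these genes are chromosomal neighbours, copies made by ancient duplication, yet neighbours differed widely in level. On chromosome 9, Scn10a (from 119435988 to 119548388) and Scn11a (from 119582825 to 119654522) lie 34.44 kb apart on the same strand. Scn11a averaged 10.5 RPKM in IHCs and 21.3 in OHCs, whereas Scn10a stood at 0.0361 and 0.195.

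On chromosome 2, from 65287462 to 66615367, the 5 genes Scn3a, Scn2a, Scn1a, Scn9a and Scn7a span 1328 kb, and the highest count of any of them in any library was 117. On chromosome 7 Cacng7, at 22.7 RPKM in IHCs (10.7 without IHC replicate 1), lies within 104.9 kb of Cacng8, at 0.0168 RPKM, and of Cacng6, with no counts. On chromosome 11 Cacng5, at 12.9 RPKM in IHCs and 17.0 in OHCs, lies within 219.5 kb of Cacng4, at 1.59 and 0.386 RPKM, and of Cacng1, with no counts.

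**Figure D4:**
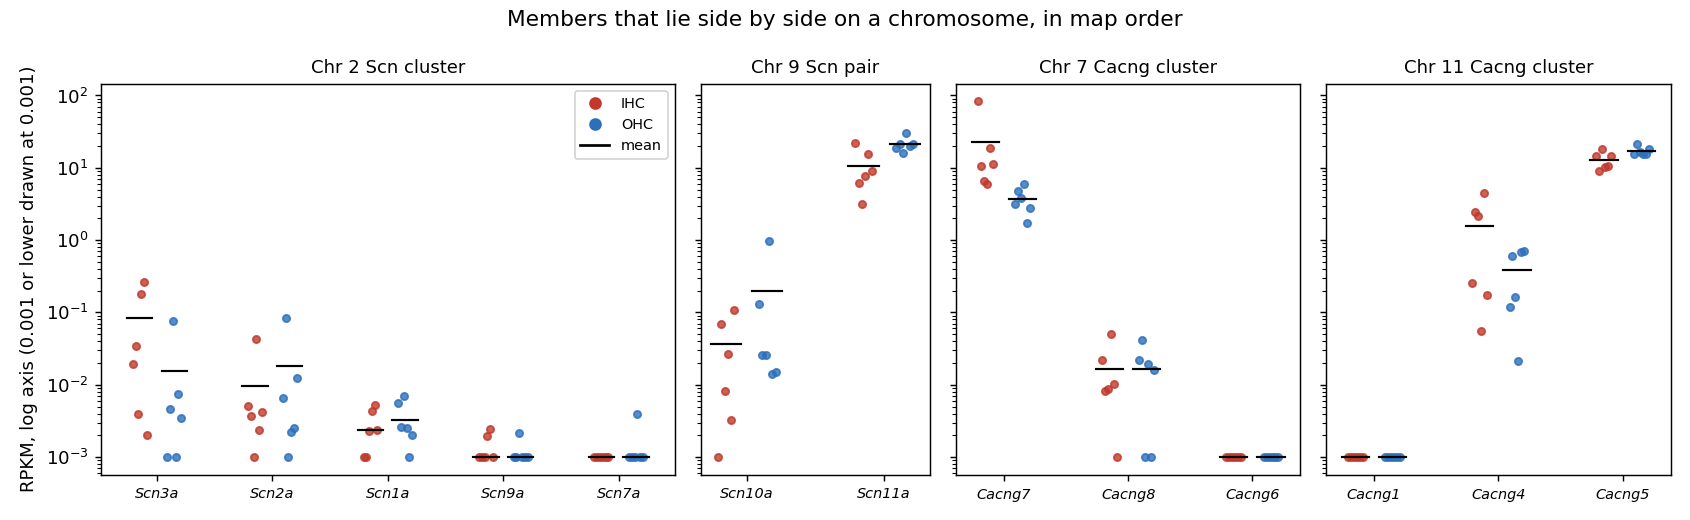
RPKM (vertical axis, log scale, values of 0.001 or lower drawn at 0.001) of channel genes that lie side by side, in map order, for the 6 IHC libraries (red) and the 6 OHC libraries (blue), with the group mean as a line. In each of the chromosome 9, 7 and 11 groups 1 gene stands well above its neighbours, and all 5 genes of the chromosome 2 cluster reach at most 0.267 RPKM (Scn3a).

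Proteins that bind these channels were followed as a list of 13 sodium channel partners and a list of 29 calcium channel partners. Over all genes tested, 3.81% were IHC-enriched and 2.44% OHC-enriched, with a median log2 fold change of -0.04. Of the sodium channel partners, 9 were tested, 2 were OHC-enriched and 0 were IHC-enriched, with a median log2 fold change of -0.29. The lists are short, and these counts are given as a description only. Nrcam, an adhesion protein of the axon initial segment and nodes, was at 189 to 316 CPM in IHC libraries (median 225) and 345 to 452 CPM in OHC libraries (median 419), which do not overlap (log2 fold change 0.76 ± 0.18, edgeR adjusted p = 0.0164). Cntn1, contactin, was at 0.131 to 1.41 CPM (median 0.677) and 3.54 to 20.8 CPM (median 14.3), again without overlap (log2 fold change 4.21 ± 0.82, edgeR adjusted p = 0.00311). Ank3, the ankyrin that anchors sodium channels, averaged 537 ± 101 and 508 ± 39.6 CPM (edgeR adjusted p = 0.831).

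The intracellular fibroblast growth factor homologues bind the tail of sodium channel pores. Fgf11 averaged 97.6 ± 70.9 CPM in IHCs and 37.7 ± 17.0 CPM in OHCs (log2 fold change -1.37 ± 0.43, edgeR adjusted p = 0.0637). IHC replicate 1 held its highest level, 222 CPM. Fgf12, Fgf13 and Fgf14 had at most 7, 6 and 76 counts in any library and were not tested.

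Of the calcium channel partners, 18 were tested, 2 were IHC-enriched and 2 were OHC-enriched, beside 3.81% and 2.44% of all genes tested. Their median log2 fold change was -0.27, beside -0.04 over all genes tested. Calm2, a calmodulin gene, was at 1182 to 2721 CPM in IHC libraries (median 1793) and 658 to 1033 CPM in OHC libraries (median 843), without overlap (log2 fold change -1.11 ± 0.20, edgeR adjusted p = 0.00139). Calm3, another calmodulin gene, did not pass (edgeR adjusted p = 0.218). Cabp2, a calmodulin-like protein that restrains inactivation of the IHC calcium current and a gene of human deafness, was at 16.7 to 35.4 CPM (median 26.9) and 0.133 to 9.99 CPM (median 5.25), with a log2 fold change of -2.53 ± 0.74 (edgeR adjusted p = 0.0462).

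Cachd1, an α2δ-like protein, was OHC-enriched, at 9.81 to 69.7 CPM in IHC libraries (median 23.7) and 98.6 to 151 CPM in OHC libraries (median 120), opposite in direction to Cacna2d2 (log2 fold change 2.03 ± 0.42, edgeR adjusted p = 0.00494). Ryr1, the calcium release channel of skeletal muscle, was at 0.0272 to 2.27 CPM (median 0.151) and 1.52 to 22.8 CPM (median 6.26), with a log2 fold change of 3.81 ± 1.08 (edgeR adjusted p = 0.0392). Antisense Gm26604 shares 4.11% of its exonic bases, with at most 110 counts in a library. Cabp2 and Ryr1 lay near the threshold, and with 1 library left out the call was lost in 10 of 12 cases for Cabp2 (adjusted p up to 0.0840) and in 9 of 12 for Ryr1 (adjusted p up to 0.105).

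Of the remaining Cabp genes, Cabp1 had at most 14 counts in any library, Cabp4 at most 18 in IHC and 463 in OHC libraries, and Cabp5 had 0. Stac, of a family of adaptors that bind L-type channels, averaged 11.9 ± 7.70 CPM in IHCs and 7.86 ± 6.75 CPM in OHCs (edgeR adjusted p = 0.685), and 10.7% of its exonic bases are shared with antisense Gm43236. Stac2 had 0 counts in IHC libraries and at most 230 in OHC libraries, and Stac3 at most 1 and 57. None of these but Stac was tested. The scaffold proteins Rims2 and Rimbp2, which place calcium channels at the ribbon synapse, did not pass (edgeR adjusted p = 0.723 and 0.894). Rims2 averaged 342 ± 32.3 CPM in IHCs against 371 ± 49.4 CPM in OHCs, and Rimbp2 105 ± 23.5 against 110 ± 27.5 CPM.

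A further list held 12 related cation channel genes, including NALCN, the sodium leak channel, which has the fold of a voltage-gated pore. Of these, 7 were tested, 2 were IHC-enriched and 0 were OHC-enriched, beside 3.81% and 2.44% of all genes tested. Their median log2 fold change was -0.39, beside -0.04 over all genes tested. The called genes were Nalf1 and Nalf2, which encode auxiliary factors of the leak channel. Nalf1 was at 23.2 to 52.1 CPM in IHC libraries (median 44.3) and 0.0334 to 1.34 CPM in OHC libraries (median 0.155), without overlap (log2 fold change -6.59 ± 0.78, edgeR adjusted p = 2.18e-05). Nalf2 was at 8.70 to 84.9 CPM (median 36.1) and 4.54 to 25.1 CPM (median 9.94), which overlap (log2 fold change -1.75 ± 0.51, edgeR adjusted p = 0.0454).

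The pore of the leak channel itself, Nalcn, averaged 6.65 ± 4.84 CPM in IHCs and 5.07 ± 4.55 CPM in OHCs (edgeR adjusted p = 0.827), and its large partner proteins Unc79 and Unc80 did not pass either (edgeR adjusted p = 0.698 and 0.796). The call on Nalf2 was lost in 9 of 12 cases with 1 library left out (adjusted p up to 0.135), while that on Nalf1 held in all alternatives run.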

How the data were processed

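RNA-seq libraries of 6 IHC and 6 OHC pools were used. The authors deposited raw counts per gene without normalisation, made with STAR in a 2-pass alignment to GRCm39 with GENCODE vM27 and with HTSeq in intersection-nonempty mode. Trimmomatic is also named in the submitters' processing notes. Tool versions and the strand setting are not given in the sources used here. Libraries were amplified without molecular identifiers, so counts include copies. The Poisson interval takes counts as independent and leaves out the spread between libraries, so it may be too narrow.

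The 5 summary lines of each file were left out. Genes were kept with filterByExpr (minimum count 10, minimum total 15), normalised by TMM and tested with glmQLFTest in edgeR 4.0.16 (R 4.3.3), with Benjamini-Hochberg adjustment over 13269 genes and a threshold of 0.05. CPM used TMM library sizes and no pseudocount. RPKM used the union of exons in GENCODE vM39, which holds 98.8% of the identifiers. SE was derived from the log2 fold change and its F statistic. The fit was tested on simulated data. Alternatives were edgeR's exact test, DESeq2 1.42.0, limma 3.58.1 (voom with quality weights), RLE size factors, other filters, ribosomal genes left out, a replicate block, and each library left out. Figures and shares used Python 3.11.15, pandas 2.3.3 and matplotlib 3.10.9.

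The members and the marker and partner lists were chosen with earlier results of these data known. Library values are given for called genes, for the leading gene of each family in each cell type and for Cacna1d, Cacnb2 and Cacna2d2, and partners are named if called, together with the Stac, Fgf11 to Fgf14 and Cabp genes. Cacna1g, Cacna1s, Ank3, Calm3, Rims2, Rimbp2, Nalcn, Unc79 and Unc80 were added after their values were seen. Results for some genes are not reported here.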

Additional observations from a re-analysis of the deposited data

Results flagged for a closer look

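Among the 38 groups of 6 libraries examined (19 tested channel genes in each cell type), 8 had a library farther from the rest than Dixon's 95% critical value allows. That value flags about 1 group in 20 if levels follow a normal distribution. The CPM were not transformed, so the 8 groups are not read as an excess over chance. All 8 were high values, and 3 of them came from IHC replicate 1, the library with the highest share of ribosomal RNA (56.9%) and the fewest counts left for other genes. In that library Cacng7 was at 327.7 CPM (the other IHC libraries at 23.5 to 75.3), Cacnb3 at 128.8 CPM (37.6 to 61.1) and Cacnb1 at 32.24 CPM (0.195 to 2.12). Cacna2d4 was at 9.464 CPM in IHC replicate 5 (0.0523 to 2.97 in the others).

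Among OHC libraries, Cacna1a was at 6.372 CPM (0.100 to 0.581 in the others) in OHC replicate 2. Cacng2 was at 92.51 CPM in OHC replicate 1 (12.2 to 39.7), Scn11a at 181.5 CPM in OHC replicate 4 (94.95 to 127) and Scn4a at 11.44 CPM in OHC replicate 5 (0.0543 to 1.63).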

How the results depend on the processing

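Over the 21 tested channel genes, 382 of 410 alternative log2 fold changes kept their direction and their side of the threshold, 0 of the calls was lost, 11 values passed the threshold only under the alternative, and 17 values of 6 uncalled genes changed sign. IHC-enriched channel genes numbered 2 as reported, 6 in DESeq2, 3 in the exact test, in voom, without a filter and with the replicate block, and 2 to 3 with 1 library left out. OHC-enriched channel genes numbered 1 as reported, 2 in DESeq2, 2 in limma voom with quality weights, 2 with the replicate block and 0 with at least 10 counts required in every library, a filter that drops Cacng2 because its IHC counts are below 10 (1 to 2 with 1 library left out, 2 without IHC replicate 1). IHC-enriched partner genes numbered 4 as reported and 7 in DESeq2. With voom the log2 fold change was -0.11 for Cacna2d1, 1.45 for Cacnb1 and -0.49 for Scn8a, and with the replicate block 0.61 for Cacnb1 and -0.18 for Scn8a. With 1 library left out it ranged from -0.25 to 0.093 for Cacna1b, -0.12 to 0.97 for Cacna2d1, -0.97 to 2.01 for Cacnb1, -0.057 to 0.59 for Cacnb3, -0.36 to 0.0012 for Scn3b and -0.42 to 0.43 for Scn8a. The cause of these changes was not tested. Of 112 alternative shares 1 moved by more than the spread between libraries, that of Cacnb2 in OHCs.

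The labels do not say whether same-numbered IHC and OHC libraries came from the same animals. Deviations of same-numbered libraries correlated at -0.031 to 0.018, which cannot settle it. With the block Scn11a (1.26) was OHC-enriched. Genes dropped by the filter on low counts have no test in the reported fit.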
